A study of Mus musculus with 24 samples.

Results

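Synaptojanins, intersectins and their partners in clathrin-mediated endocytosis were measured in the hippocampus and entorhinal cortex of Ts65Dn mice: Synj1 and Synj2, Itsn1 and Itsn2, and the partners Dnm1, Sh3gl2, Amph, Bin1, Picalm and Dnajc6. They were taken by symbol, so that 10 of the 55385 genes in the count table are described. Of these, 3 are triplicated in Ts65Dn mice: Synj1 (chr16:90936092-91011308, minus strand of GRCm38) and Itsn1 (chr16:91729281-91920597, plus strand) on the segment of mouse chromosome 16 (Mmu16) homologous to human chromosome 21, and Synj2 (chr17:5941280-6044290, plus strand) on the segment of mouse chromosome 17 (Mmu17) that is not. The other 7 lie on chromosomes 2, 4, 7, 12, 13 and 18 in the usual 2 copies and are called disomic here.

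Ts65Dn mice carry a freely segregating minichromosome that joins the Mir155 to Zbtb21 interval of Mmu16 to the Pisd-ps2/Scaf8 to Pde10a interval of Mmu17, and are a model of Down syndrome. RNA-Seq libraries were made from hippocampus (HIP) and entorhinal cortex (EC) of 6 male Ts65Dn mice and 6 male wild-type (wt) littermates aged 5 to 6 months on a B6C3B background, 1 library per region and mouse, 24 in all. Library totals ranged from 23128589 to 40476492 counts on genes. In a whole tissue, fewer cells of a type and less RNA per cell cannot be told apart.

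Synaptic vesicles that have released their transmitter are retrieved from the nerve terminal membrane in clathrin-coated buds. Adaptors and intersectin scaffolds assemble the bud, BAR-domain proteins such as endophilin and amphiphysin bend its neck, dynamin cuts it, and synaptojanin dephosphorylates phosphatidylinositol 4,5-bisphosphate so that the chaperone auxilin can strip the coat. Synaptojanin 1 is the main phosphoinositide phosphatase of nerve terminals, whereas synaptojanin 2 is found in many tissues.

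Before the results, 1 mouse has to be set apart. In the library labelled Ts65Dn replicate 3, the median gene of the Mmu16 segment stood at 1.02 times the wt mean in the HIP and 0.991 times in the EC, and the median gene of the Mmu17 segment at 0.989 and 0.952 times. The other 5 Ts65Dn mice had medians between 1.39 and 1.55 in the 2 segments and regions. Both libraries of this mouse thus went against their genotype label. The label was kept as given. Genotype differences of the members within a region are given with all 6 Ts65Dn mice and again without this mouse. The fits by DESeq2, with GC content and length removed, and with the other alternative settings kept it. So did the comparison of regions in Ts65Dn mice and the search for genes most like each triplicated member. For the interaction of genotype and region, only the calls of members are given without it. This mouse was set apart by the level of triplicated genes, so results of these genes without it are descriptive. The regional labels held in every library: the summed level of 3 dentate gyrus markers was at least 242 CPM (counts scaled to a common library total with TMM factors) in the HIP and at most 16.3 CPM in the EC, and 3 cortical markers summed to at most 127 CPM in the HIP and at least 266 CPM in the EC. The 3 striatal markers summed to 17.2 to 25.1 CPM in the wt EC and 15.2 to 44.0 CPM in the Ts65Dn EC, with medians of 18.8 and 27.999 CPM, and 1 of the 3 was called higher in the Ts65Dn EC by edgeR. Their part in the EC genotype results was not tested.

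The triplicated synaptojanins and intersectin were higher in Ts65Dn than in wt in both regions, each by about the factor of 1.5 that 3 copies against 2 would give, and none of the 7 disomic members passed the test in either region. With edgeR's quasi-likelihood test and a Benjamini-Hochberg adjusted p under 0.05 over all genes tested, 3 of 10 members were called in the HIP, all 3 higher, against 1.04% of all 17355 genes tested (0.542% called higher). In the EC the same 3 were called, all higher, against 2.50% of 17049 genes (1.15% called higher). The 3 called are the triplicated members, so a share over all genes is no close setting for them. Among coding genes tested in the triplicated segments, these members included, 42 of 79 on Mmu16 and 11 of 30 on Mmu17 were called in the HIP. In the EC it was 43 of 77 and 13 of 30. Without the library labelled Ts65Dn replicate 3 the same 3 members were called in each region, against 1.82% of genes for the HIP and 2.79% for the EC. All 10 members passed the filter on low counts in both regions.

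Synj1 had 558, 578 and 596 CPM in the wt HIP (lowest, median and highest mouse) and 527, 923 and 997 CPM in the Ts65Dn HIP. In the EC it had 597, 629 and 686 CPM in wt and 575, 980.4 and 1117 CPM in Ts65Dn. The lowest value of each Ts65Dn group was the library labelled Ts65Dn replicate 3, which lay below every wt mouse, while the other 5 Ts65Dn mice lay above all 6 wt mice in both regions, at 1.49 to 1.76 times the wt mean. By edgeR, the log2 fold change was 0.59 ± 0.12 (SE, 95% interval 0.33 to 0.84) for the HIP (adjusted p = 0.0335) and 0.55 ± 0.12 (0.30 to 0.79) for the EC (adjusted p = 0.0259). Without the library labelled Ts65Dn replicate 3 it was 0.69 ± 0.05 (0.59 to 0.79) for the HIP and 0.65 ± 0.05 (0.54 to 0.76) for the EC, with adjusted p-values of 3.37e-06 and 1.93e-05 by edgeR. That library was set apart by the level of triplicated genes, Synj1 among them, so these p-values and intervals are no independent test. The call with that library kept was not stable: leaving out any 1 of the other 11 mice ended it in the HIP (highest adjusted p = 0.0844, without Ts65Dn replicate 6), and leaving out 1 of 7 mice ended it in the EC.

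Itsn1, a scaffold that brings dynamin, synaptojanin and the adaptors together at the coated pit, had 153, 168 and 176 CPM in the wt HIP and 179, 248 and 268 CPM in the Ts65Dn HIP. EC values of this gene were 145, 161 and 168 CPM in wt and 173, 248 and 259 CPM in Ts65Dn. The genotypes did not overlap in either region, although the library labelled Ts65Dn replicate 3 lay just above the highest wt mouse, at 1.07 and 1.10 times the wt mean, against 1.47 to 1.63 times for the other 5. The log2 fold change was 0.53 ± 0.08 (95% interval 0.36 to 0.70) for hippocampus and 0.56 ± 0.08 (0.39 to 0.73) for entorhinal cortex (edgeR, adjusted p = 0.00853 and 0.00519). Without the library labelled Ts65Dn replicate 3 it was 0.60 ± 0.04 and 0.63 ± 0.05. Itsn1 kept its call in each of the 12 fits that left out 1 mouse, in both regions.

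Synj2 had 79.2, 82.8 and 95.5 CPM in the wt HIP and 93.8, 142 and 149.99 CPM in the Ts65Dn HIP. In the EC it had 108, 134 and 158 CPM in wt and 143, 200.4 and 221 CPM in Ts65Dn. Only the library labelled Ts65Dn replicate 3 fell within the wt range, in both regions. The log2 fold change was 0.64 ± 0.10 (95% interval 0.43 to 0.86) for hippocampus and 0.53 ± 0.10 (0.32 to 0.75) for entorhinal cortex (edgeR, adjusted p = 0.0105 and 0.0168), and 0.73 ± 0.06 and 0.61 ± 0.08 without that library. Synj2 also kept its call in each of the 12 fits that left out 1 mouse, in both regions. On the opposite strand, Serac1, another gene of the triplicated Mmu17 segment, shares 297 exon bases with Synj2, or 3.56% of its exon length, and the strand setting of the counting is not given in the sources used here, so some reads may have come from either gene.

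**Figure D1:**
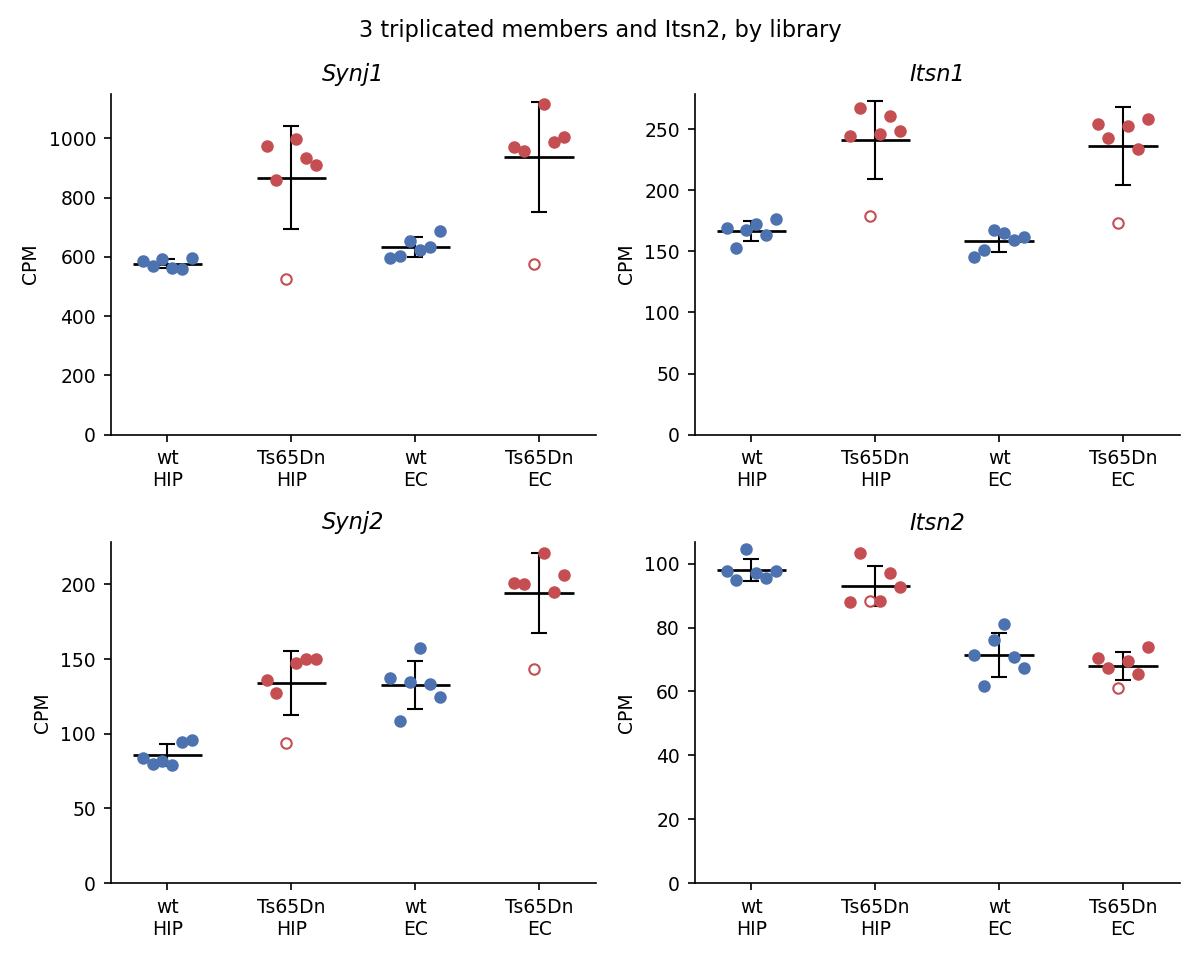
CPM of Synj1, Itsn1, Synj2 and Itsn2 in each library (y axis) by genotype and region (x axis), with wt in blue, Ts65Dn in red, the library labelled Ts65Dn replicate 3 as an open circle, and black lines for the mean and SD of 6 mice. For the first 3 genes the 5 filled red points stand above the wt points of the same region and the open circle is near or within them, while for Itsn2, which is not triplicated, the genotypes overlap.

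A factor of 1.5 is 0.58 on the log2 scale, and it lay inside the 95% interval of all 3 triplicated members in both regions when 6 Ts65Dn mice were used. Without the library labelled Ts65Dn replicate 3 it lay inside the interval of Itsn1 in both regions and of Synj1 and Synj2 in the EC, and just under the lower bound of 0.59 for Synj1 and for Synj2 in the HIP. That library was set apart by the level of triplicated genes, so the intervals without it do not test the factor of 1.5. Among the protein-coding genes of the Mmu16 segment that were tested, Synj1 ranked 20 of 79 by log2 fold change for the HIP and 25 of 77 for the EC, and Itsn1 ranked 29 of 79 and 20 of 77. That segment had a median of 0.50 for the HIP and 0.51 for the EC. Synj2 ranked 6 of 30 coding genes of the Mmu17 segment in the HIP (median 0.48) and 13 of 30 in the EC (median 0.51). Without the library labelled Ts65Dn replicate 3, Synj1 ranked 15 of 80 (HIP) and 17 of 78 (EC), Itsn1 33 of 80 and 22 of 78, and Synj2 6 of 30 and 15 of 30. None of the 3 genes ranked first or last in its segment.

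**Figure D2:**
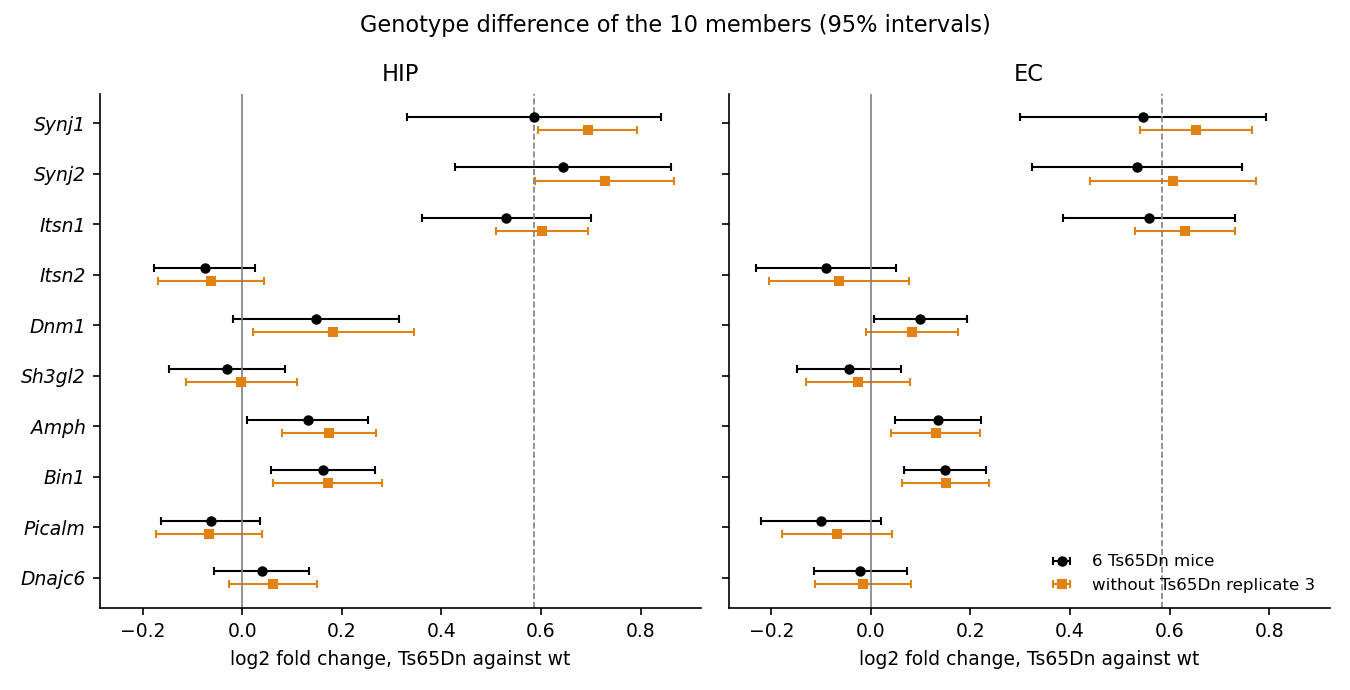
Log2 fold change of Ts65Dn against wt with its 95% interval (x axis, edgeR) for the 10 genes (y axis) in the HIP and the EC, with all 6 Ts65Dn mice (black circles) and without the library labelled Ts65Dn replicate 3 (orange squares). The solid line marks no change and the dashed line a factor of 1.5: Synj1, Synj2 and Itsn1 lie around the dashed line and the 7 disomic genes between -0.10 and 0.18.

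The sequences just upstream of the 3 triplicated members are shown because these are the loci present in 3 copies. They are the RefSeq windows before each gene's start on GRCm38.p6, 5′ to 3′ on the gene's strand, without bases inside the gene's own annotated exons. Capitals mark matches on either strand to the GC box GGGCGG or the CCAAT box CCAAT. The windows are chr16:91011309-91011558 (minus strand) for Synj1, chr16:91729121-91729280 (plus strand) for Itsn1 and chr17:5975330-5975579 (plus strand) for Synj2, the last at the start of a transcript that begins within the span of the Synj2 locus.
Synj1: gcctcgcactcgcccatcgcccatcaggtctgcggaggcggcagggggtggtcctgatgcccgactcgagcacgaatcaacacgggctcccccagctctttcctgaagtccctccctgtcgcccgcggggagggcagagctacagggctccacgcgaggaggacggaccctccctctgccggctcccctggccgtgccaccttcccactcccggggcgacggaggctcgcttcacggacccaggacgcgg
Itsn1: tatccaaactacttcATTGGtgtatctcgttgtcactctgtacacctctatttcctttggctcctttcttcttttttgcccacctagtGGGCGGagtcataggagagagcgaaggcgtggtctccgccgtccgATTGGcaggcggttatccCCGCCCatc
Synj2: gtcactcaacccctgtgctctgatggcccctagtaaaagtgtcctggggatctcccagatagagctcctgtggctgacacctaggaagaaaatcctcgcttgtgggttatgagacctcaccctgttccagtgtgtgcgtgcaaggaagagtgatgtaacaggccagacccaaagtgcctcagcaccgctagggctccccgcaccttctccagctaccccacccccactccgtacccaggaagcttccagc
The Synj1 window held 71.2% G and C with 24 CpG dinucleotides, the Synj2 window 57.6% with 5, and the shorter Itsn1 window 52.5% with 9. The Itsn1 stretch as printed held 2 GC boxes and 2 CCAAT boxes, and the Synj1 and Synj2 windows held neither. With the exon bases kept, the full Itsn1 window of 250 bases held 5 GC boxes, and a second RefSeq window of Synj1, which lies mostly in exon bases and is not printed, held 4. Over 32851 full RefSeq windows of 250 bases, exon bases included, 32.7% held a GC box and 33.8% a CCAAT box, and the median G and C content was 52.4%. The windows differ in base composition and motif content, and a match is a description of the letters only.

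Among the disomic members, Bin1 and Amph, which encode the amphiphysins that bend the neck of the bud, were the closest to the threshold, and both had higher values in Ts65Dn. Bin1 (chr18:32377230-32435737) had 233, 245 and 254 CPM in the wt HIP and 260.1, 265 and 311 CPM in the Ts65Dn HIP. EC values of this gene were 185, 195 and 198 CPM in wt and 208, 214 and 228 CPM in Ts65Dn. All 6 Ts65Dn mice, the library labelled Ts65Dn replicate 3 included, lay above all 6 wt mice in both regions. The log2 fold change was 0.16 ± 0.05 (95% interval 0.06 to 0.27) for hippocampus and 0.15 ± 0.04 (0.07 to 0.23) for entorhinal cortex, and neither passed the edgeR threshold (adjusted p = 0.136 and 0.0552). Bin1 is also made by oligodendrocytes, whose 4 markers summed to 5326 to 7338 CPM in the wt HIP and 5519 to 8402 CPM in the Ts65Dn HIP, and to 1132 to 2187 and 1319 to 2343 CPM in the EC, and their part in the result was not tested. DESeq2 called Bin1 in the EC (adjusted p = 0.00377) and not in the HIP (adjusted p = 0.0613). The edgeR log2 fold change of Bin1 without the library labelled Ts65Dn replicate 3 was 0.17 ± 0.05 (HIP, adjusted p = 0.112) and 0.15 ± 0.04 (EC, adjusted p = 0.0657). Among the 12 fits that left out 1 mouse, edgeR called Bin1 in 1 for the EC (adjusted p = 0.0416, without Ts65Dn replicate 6). For the HIP it was called in 0 of 12.

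Amph (chr13:18948205-19150921) had 262, 278 and 289 CPM in the wt HIP and 258, 309.9 and 338 CPM in the Ts65Dn HIP, where the library labelled Ts65Dn replicate 3 was the lowest of all 12. In the EC it had 274, 281 and 297 CPM in wt and 301, 313 and 338 CPM in Ts65Dn, so the genotypes did not overlap there. The log2 fold change was 0.13 ± 0.06 (95% interval 0.01 to 0.25) for hippocampus and 0.13 ± 0.04 (0.05 to 0.22) for entorhinal cortex (edgeR, adjusted p = 0.298 and 0.0874). DESeq2 called Amph in the EC (adjusted p = 0.0225). The edgeR values without the library labelled Ts65Dn replicate 3 were 0.17 ± 0.04 (HIP, adjusted p = 0.0648) and 0.13 ± 0.04 (EC, adjusted p = 0.107).

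Of the 10 members, 2 (Itsn1 and Bin1) had all 6 Ts65Dn mice above all 6 wt mice in the HIP, against 0.622% of all genes tested, and 3 (Itsn1, Bin1 and Amph) in the EC, against 1.37%. No member lay wholly below wt; genes that did not overlap in either direction made up 1.69% of those tested for HIP and 2.42% for EC. Itsn1 and Bin1 were above wt in this way in both regions, and are among the 27 of 16592 genes tested in both that were (0.163%), of which 18 lie outside the triplicated segments. HIP and EC were taken from the same mice, and the 2 regions are therefore not separate animals. With the library labelled Ts65Dn replicate 3 set aside, the other 5 Ts65Dn mice lay above all 6 wt mice for 5 members in each region (Synj1, Synj2, Itsn1, Amph and Bin1), against 1.97% of genes tested for the HIP and 2.56% for the EC. Synj1, Synj2 and Itsn1 are triplicated, and that library was set apart by the level of triplicated genes. For them a share over all genes is therefore no close setting.

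Dnm1, the brain dynamin that severs the vesicle neck, had 1025, 1164 and 1250 CPM (lowest, median and highest) in the wt HIP and 1120, 1302 and 1474 CPM in the Ts65Dn HIP. EC values of this gene were 1209.5, 1266 and 1330.0 CPM in wt and 1278, 1392 and 1439 CPM in Ts65Dn, and the genotypes overlapped in both regions. Its log2 fold change was 0.15 ± 0.08 for hippocampus and 0.10 ± 0.04 for entorhinal cortex (edgeR, adjusted p = 0.407 and 0.231). Itsn2, the paralog of Itsn1, was at 97.9 ± 3.46 CPM (SD, n = 6) in the wt HIP and 93.0 ± 6.29 CPM in the Ts65Dn HIP, and at 71.4 ± 6.79 and 67.9 ± 4.43 CPM in the EC. Picalm, a clathrin assembly protein, was at 197 ± 6.54 and 188 ± 12.6 CPM in the HIP and 160 ± 9.18 and 151 ± 10.8 CPM in the EC (wt and Ts65Dn). Annotated exons on the opposite strand cover 10.96% of the Itsn2 exon length (Gm48678) and 6.22% of that of Bin1 (A830052D11Rik), and without the strand setting reads of these pairs cannot be told apart. The 95% intervals of Itsn2 and Picalm included no change in both regions, from -0.23 at the lowest to 0.05 at the highest.

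Sh3gl2, which encodes endophilin A1, the BAR protein that recruits synaptojanin, was at 359 ± 15.5 CPM in the wt HIP and 352 ± 28.2 CPM in the Ts65Dn HIP, and at 463 ± 19.1 and 454 ± 24.98 CPM in the EC. Dnajc6, which encodes auxilin, was at 419 ± 16.1 and 431 ± 21.6 CPM in the HIP and 538 ± 18.9 and 536 ± 24.5 CPM in the EC. The fold of Ts65Dn over wt had a 95% interval of 0.904 to 1.06 (HIP) and 0.902 to 1.04 (EC) for Sh3gl2, and 0.961 to 1.10 and 0.924 to 1.05 for Dnajc6. The upper bounds of all 7 disomic members, at most 1.24 (Dnm1 in the HIP), were below 1.5. When the mouse labelled Ts65Dn replicate 3 was omitted, Dnm1 had log2 fold changes of 0.18 ± 0.07 (HIP) and 0.08 ± 0.04 (EC), and Itsn2, Picalm, Sh3gl2 and Dnajc6 had values between -0.07 and 0.06 in both regions, none of them called by edgeR.

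**Figure D3:**
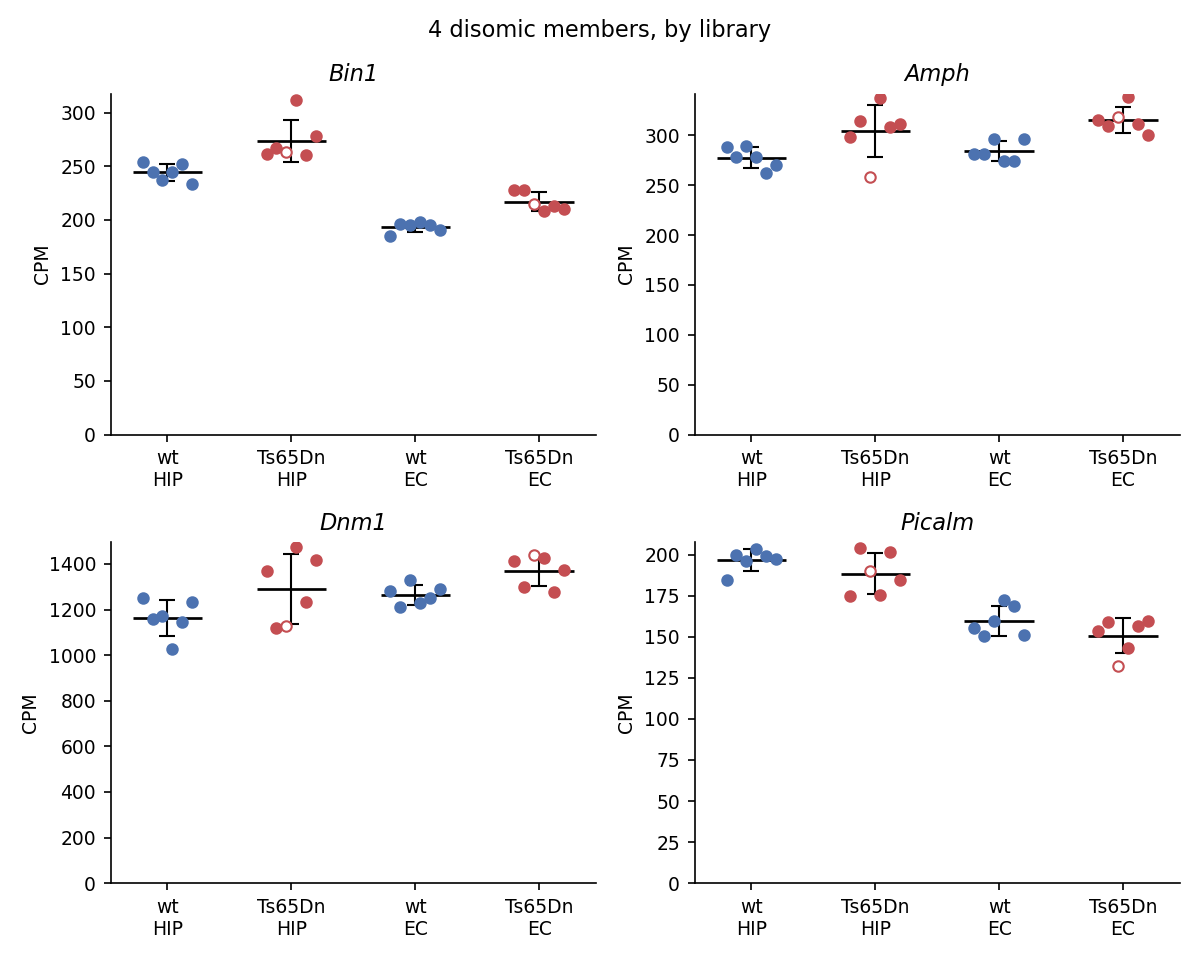
CPM of Bin1, Amph, Dnm1 and Picalm in each library (y axis) by genotype and region (x axis), drawn as for the triplicated genes with the library labelled Ts65Dn replicate 3 as an open circle and the mean and SD of 6 mice in black. Every red point of Bin1 lies above every blue point of the same region, with Ts65Dn at 260.1 CPM or more against wt at 254 CPM or less in the HIP, whereas Picalm overlaps.

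The annotated transcripts of each gene, weighted by length, hold 58.7% and 57.0% G and C for Dnm1 and Bin1, the most of the 10 members. Those of Picalm and Itsn2 hold 42.0% and 46.5%, the least. When the trend of counts on GC content and length was removed in each library, the log2 fold change of Bin1 was 0.08 ± 0.06 (HIP) and 0.06 ± 0.04 (EC), that of Dnm1 0.05 ± 0.07 and -0.01 ± 0.05, that of Picalm 0.01 ± 0.04 and 0.00 ± 0.04, and that of Itsn2 -0.06 ± 0.04 and -0.07 ± 0.05, against -0.08 ± 0.05 and -0.09 ± 0.07 before. Amph, at 50.5% G and C, kept 0.11 ± 0.07 and 0.11 ± 0.04, with adjusted p-values of 0.627 and 0.220 by edgeR. The 3 triplicated members kept log2 fold changes of 0.48 to 0.61, although Synj1 lost its call in the HIP under this setting (adjusted p = 0.0653), which was chosen after seeing the data. The part of base composition in the Bin1 difference was not tested.

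The ratio of 2 genes within a library does not depend on how libraries are scaled, and it gives the RNA level of a triplicated gene relative to a partner. Itsn1 over Itsn2 was 1.60, 1.72 and 1.80 reads per read in the wt HIP (lowest, median and highest) and 2.03, 2.68 and 2.79 in the Ts65Dn HIP. In the EC it was 2.03, 2.23 and 2.45 in wt and 2.84, 3.596 and 3.63 in Ts65Dn. No Ts65Dn mouse fell within the wt range, and the lowest in each region was the library labelled Ts65Dn replicate 3. It lay above wt although its triplicated segments stood near the wt level. Itsn1 was there at 1.07 (HIP) and 1.10 (EC) times the wt mean, and Itsn2 at 0.901 and 0.854 times. The ratio was 1.51-fold higher in the HIP and 1.55-fold higher in the EC (two-sided exact permutation test over all splits of the mice, p = 0.00216 in both regions, which is the lowest value possible with groups of 6; Benjamini-Hochberg over the 6 ratio tests, 0.00649). Without that library it was 1.59-fold and 1.61-fold higher.

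Synj1 over Sh3gl2, the phosphatase over the endophilin that recruits it, was 1.47, 1.62 and 1.69 in the wt HIP and 1.67, 2.59 and 2.71 in the Ts65Dn HIP, and 1.32, 1.37 and 1.42 in the wt EC and 1.36, 2.12 and 2.50 in the Ts65Dn EC. It was 1.503-fold higher in the HIP (exact permutation p = 0.00649) and 1.48-fold higher in the EC (exact permutation p = 0.00866), both 0.013 after adjustment over the 6 tests, and the library labelled Ts65Dn replicate 3 was alone within the wt range. Without it the ratio was 1.62-fold and 1.60-fold higher. The ratio of Synj1 over Synj2, both triplicated, was 5.92, 7.03 and 7.28 in the wt HIP and 5.62, 6.50 and 7.17 in the Ts65Dn HIP, and 3.95, 4.81 and 5.58 in the wt EC and 4.01, 4.86 and 5.08 in the Ts65Dn EC. Its difference was -0.08 on the log2 scale in the HIP (exact permutation p = 0.305) and -0.01 in the EC (exact permutation p = 0.926), with overlapping genotypes, so a shift in the balance of the 2 synaptojanins was not detected. Without the mouse labelled Ts65Dn replicate 3 the differences were -0.04 (exact permutation p = 0.558) and 0.04 (exact permutation p = 0.658), the latter of opposite sign.

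**Figure D4:**
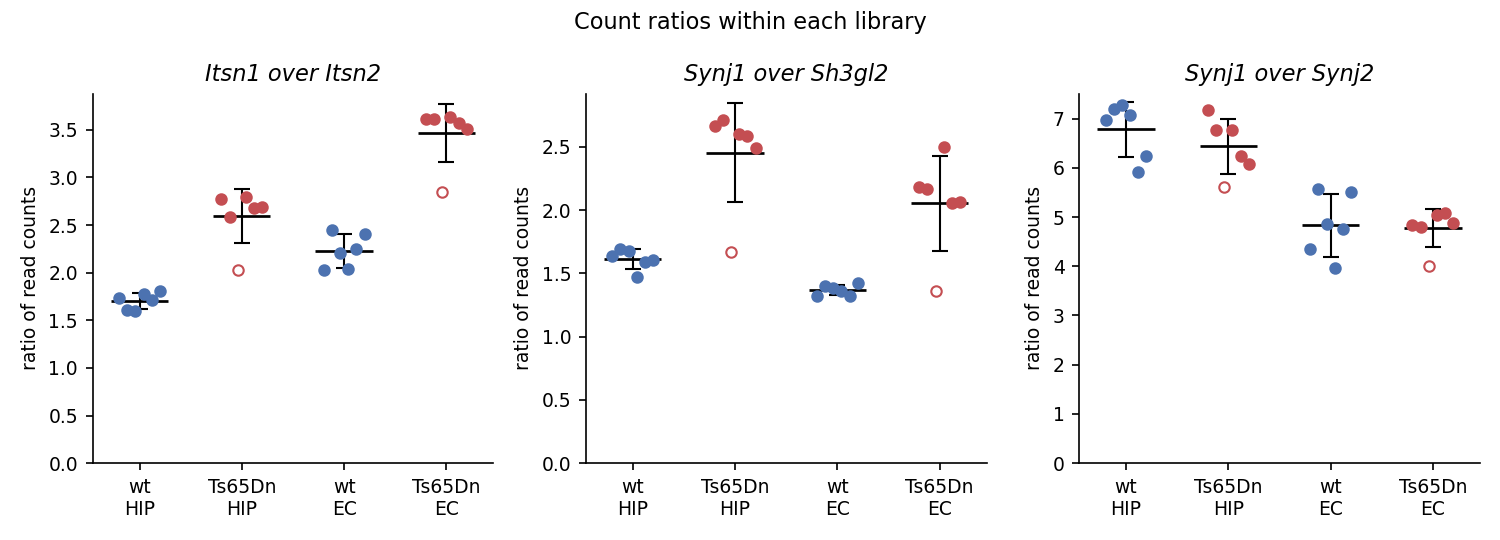
Ratio of read counts of Itsn1 over Itsn2, Synj1 over Sh3gl2 and Synj1 over Synj2 in each library (y axis) by genotype and region (x axis), with wt in blue, Ts65Dn in red, the library labelled Ts65Dn replicate 3 open, and the mean and SD of 6 mice in black. The first 2 ratios, of a triplicated over a disomic gene, are higher in at least 5 Ts65Dn mice than in any wt mouse, and the third, of 2 triplicated genes, overlaps.

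Levels between genes were compared per kilobase of merged exon. In the wt HIP, Dnm1 was the most abundant at 222 ± 15.3 CPM per kb (SD, n = 6), followed by Synj1 at 71.4 ± 2.05, Dnajc6 at 70.9 ± 2.72, Amph at 61.3 ± 2.26, Bin1 at 59.4 ± 1.94 and Sh3gl2 at 54.8 ± 2.37. The ranges of mean ± SD overlapped for Synj1 and Dnajc6, and likewise for Amph and Bin1. Picalm (12.5 ± 0.416), Synj2 (10.3 ± 0.879), Itsn2 (7.21 ± 0.255) and Itsn1 (7.13 ± 0.345) formed a lower group. The merged exons of Itsn1 cover 23.4 kb over all annotated isoforms, which lowers its level per kilobase. Synj1 thus stood well above Synj2 per kilobase in the wt HIP. The intersectins had like values on this measure, which depends on the merged lengths of 23.4 kb for Itsn1 and 13.6 kb for Itsn2. In reads, the median ratio of Itsn1 over Itsn2 was 1.72 in the wt HIP.

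**Figure D5:**
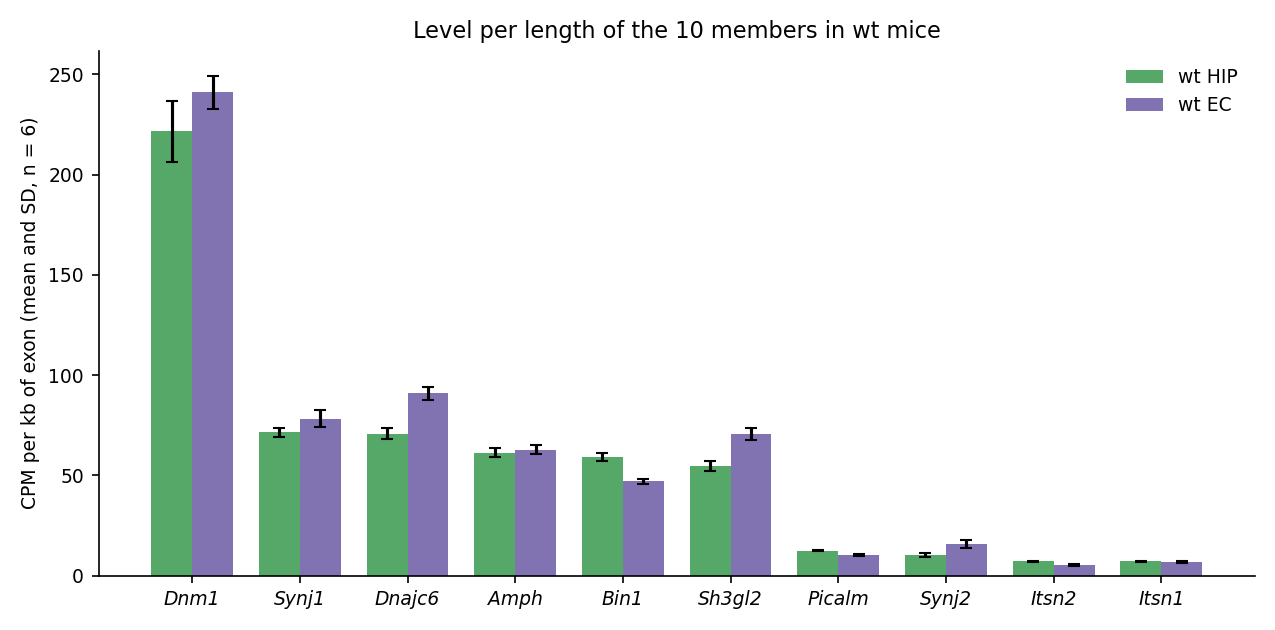
Level of the 10 genes in the wt HIP (green) and wt EC (purple) in CPM per kilobase of merged exon (y axis), as bars for the mean and error bars for the SD of 6 mice, ordered by the HIP level. Dnm1 stands at 222 CPM per kb in the HIP, 5 genes between 54.8 and 71.4, and Picalm, Synj2 and the intersectins at 12.5 or less.

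The HIP and EC differed in most of these genes, as they did in most genes. In wt mice, 8 of 10 members were called between HIP and EC of the same mouse (edgeR with a term for each mouse), against 61.3% of 17196 genes tested, 3 higher and 5 lower in the HIP. Of the 10, Synj2 had the largest difference, at 85.7 ± 7.33 CPM in the HIP and 133 ± 16.2 CPM in the EC, lower in the HIP of all 6 wt mice by 0.63 ± 0.07 on the log2 scale (edgeR, adjusted p = 2.85e-05). Sh3gl2 and Dnajc6 were lower in the HIP, each with a log2 difference of -0.37 ± 0.03 and with no overlap between regions. Synj1 and Dnm1 were slightly lower, with log2 differences of -0.14 ± 0.04 and -0.13 ± 0.04 (edgeR, adjusted p = 0.00795 and 0.0176), and Dnm1 lost its call when wt replicate 3 (adjusted p = 0.0542) or wt replicate 4 (adjusted p = 0.0516) was left out.

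Itsn2, Bin1 and Picalm were higher in the HIP than in the EC of wt mice, with log2 differences of 0.45 ± 0.05, 0.33 ± 0.03 and 0.30 ± 0.04 and no overlap between regions. Itsn1 (0.07 ± 0.04, adjusted p = 0.116 by edgeR) and Amph (-0.04 ± 0.03, adjusted p = 0.367) were not called. The paralogs of each pair thus differed between regions in unlike ways: Itsn2 was higher in the HIP while Itsn1 had an interval of -0.01 to 0.15, and the intervals of Synj2 (-0.79 to -0.47) and Synj1 (-0.22 to -0.06) did not overlap. All 4 oligodendrocyte markers were higher in the HIP, with a median log2 difference of 2.07, and their summed level ranged from 5326 to 7338 CPM in the wt HIP and from 1132 to 2187 CPM in the wt EC. The 6 neuronal markers summed to 6009 to 6924 CPM in the HIP and 8223 to 9332 CPM in the EC. The part of this difference in cell markers in the regional levels of the members was not tested.

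In Ts65Dn mice, 6 of 10 members were called between regions, against 52.3% of 17314 genes tested: Itsn2, Bin1 and Picalm higher in the HIP and Synj2, Sh3gl2 and Dnajc6 lower. Their log2 differences ran from -0.54 for Synj2 to 0.46 for Itsn2. Synj1 had -0.11 ± 0.05 (edgeR, adjusted p = 0.0752) and Dnm1 -0.09 ± 0.06 (adjusted p = 0.262). A call in one genotype and not in the other does not show a difference between them, and the interaction of genotype and region was therefore tested directly. None of 10 members was called by edgeR, against 0% (0 of 18109) of all genes, and DESeq2 called 0 genes too. Unadjusted p-values under 0.05 were found for 0 members and 742 genes. The interaction terms of the members ran from -0.03 for Itsn1 to 0.09 for Synj2 on the log2 scale, with a widest 95% interval of -0.10 to 0.29 for Synj2. These terms are from the fit with all mice. In the 12 fits that each left out a mouse, the one labelled Ts65Dn replicate 3 included, no member was called by edgeR.

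A list of 59 other genes of coated-pit endocytosis held coat and adaptor proteins, scission and curvature proteins, phosphoinositide enzymes, uncoating factors and actin links, and all 59 genes were tested. In the HIP 0 of 59 were called by edgeR and 1, Snx9, by DESeq2, and 9 had an unadjusted p under 0.05, 8 of them higher. These 9 were 15.3% of the list, against 14.8% of all genes tested, and the median log2 fold change was 0.04 over the list and 0.00 over all genes. Of the 2572 genes at that level among all genes tested, 1254 were higher. In the EC 2 of 59 were called, against the 2.50% of all genes given above, with medians of 0.03 and 0.00, and 13 had an unadjusted p under 0.05, or 22.0% against 19.0% of all genes tested. Among these 13, 11 were higher, against 1536 of the 3235 genes at that level among all genes tested in the EC. None of the 11 phosphoinositide enzymes, 4 uncoating genes and 6 actin genes was called by edgeR in either region, whereas DESeq2 called 1 of them, the clathrin and actin linker Hip1r, in the EC (adjusted p = 0.0149), and at the unadjusted level of 0.05 there was 1 such gene per region. Without the library labelled Ts65Dn replicate 3, Snx9 (adjusted p = 0.0216) and Ap2a2 (adjusted p = 0.00181) were called in the HIP by edgeR, and Snx9 and Fcho2 in the EC. In the EC, DESeq2 also called 2 coat and adaptor genes, Cltb higher (adjusted p = 0.0409) and Reps2 lower (adjusted p = 0.0492). Reps2 was also called lower by edgeR without wt replicate 2 (adjusted p = 0.0448). Hip1r, Cltb, Reps2 and Ap2a2, a subunit of the AP-2 adaptor, are named because of these calls, after their values were seen. Ap2a2 had 0.22 ± 0.08 (adjusted p = 0.192) in the HIP with all 6 Ts65Dn mice.

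Snx9, a sorting nexin that binds dynamin and shares the triplicated Mmu17 segment with Synj2, had 10.8, 12.8 and 14.7 CPM in the wt HIP and 14.7, 17.7 and 21.5 CPM in the Ts65Dn HIP, and 8.82, 10.0 and 11.5 CPM in the wt EC and 10.1, 14.98 and 18.4 CPM in the Ts65Dn EC. The genotypes met without overlap in the HIP and overlapped in the EC. By edgeR, its log2 fold change was 0.47 ± 0.11 for hippocampus and 0.53 ± 0.12 for entorhinal cortex (edgeR, adjusted p = 0.0502 and 0.0311). Fcho2, an early coated-pit protein on a disomic chromosome, had 48.0, 49.1 and 50.7 CPM in the wt HIP and 35.0, 41.8 and 47.7 CPM in the Ts65Dn HIP, and 34.8, 37.1 and 39.2 CPM in the wt EC and 25.04, 27.6 and 34.9 CPM in the Ts65Dn EC. Fcho2 had a log2 fold change of -0.24 ± 0.07 (HIP) and -0.35 ± 0.08 (EC), and was called lower by edgeR only in the EC (adjusted p = 0.152 and 0.0347); the difference between regions was not called in the interaction test. With GC content and length removed the log2 fold change of Fcho2 in the EC was -0.20 ± 0.06 and no longer called (adjusted p = 0.159). The EC calls of both genes were not stable: each was lost for 8 of the 12 mice when that mouse was left out, with adjusted p-values of up to 0.0941 for Fcho2 (without Ts65Dn replicate 1) and 0.0774 for Snx9 (without Ts65Dn replicate 1). Without the mouse labelled Ts65Dn replicate 3, Snx9 had log2 fold changes of 0.53 ± 0.10 (HIP) and 0.61 ± 0.09 (EC), and Fcho2 -0.28 ± 0.07 and -0.31 ± 0.08.

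How the members varied together among mice was described by Pearson correlations of log2 CPM after taking off the mean of each genotype and region, with no test, since libraries of 1 mouse share that mouse and all share depth and scaling. Over 24 libraries Synj1 and Itsn1 had r = 0.90, Synj1 and Synj2 0.81, and Synj2 and Itsn1 0.79. Without the 2 libraries labelled Ts65Dn replicate 3 these were 0.20, 0.26 and 0.27, so the high values rested on that mouse. Over the 12 wt libraries the largest were 0.75 for Synj1 with Dnajc6, 0.74 for Itsn1 with Sh3gl2, and 0.71 for Amph with Dnajc6 and for Synj2 with Itsn2. Picalm with Amph was the lowest, at -0.53, and Dnajc6 with Bin1 was at -0.52.

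The genes whose levels most resembled each triplicated member were found by Pearson r over 24 libraries after taking off the mean of each region, among genes with a mean of at least 10 CPM. For Synj1 they were Cct8 (r = 0.99), Ttc3 (0.98) and App (0.97), for Itsn1 Ttc3 (0.97), Dop1b (0.97) and Dscam (0.96), and for Synj2 Dscam (0.97), Ttc3 (0.96) and Dop1b (0.95). All are on the Mmu16 segment, also those most like Synj2 of Mmu17. The genotype difference was left in these correlations, so triplicated genes were bound to rank high and the lists do not show shared regulation. More coding genes were tested on Mmu16 than on Mmu17 (79 against 30 in the HIP). Over the 12 wt libraries, where copy number does not vary, the nearest genes included these, all outside the triplicated segments: Grm5, Ptprn2 and Cdkl2 for Synj1 (r = 0.92, 0.89 and 0.89), Hcfc1 and Zyg11b for Itsn1 (0.92 and 0.89), and Cacnb4 and Srpk2 for Synj2 (0.95 and 0.95). Such values are the highest of many correlations over few mice, each of which gave both regions. They were not tested and do not show shared regulation either.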

How the data were processed

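Per the labels and the study's methods, the authors used Hisat2 to align single-end 50-base reads to the GRCm38 assembly of Ensembl release 99, and deposited raw HTSeq counts per gene, without normalization, for 55385 genes. The versions of Hisat2 and HTSeq and the strand setting are not given in the sources used here. The labels name a stranded mRNA kit, the methods a kit for total RNA depleted of rRNA. The authors' tables with their own DESeq2 and FCROS comparisons (fold changes and p-values) were not used. All count columns were used (0 unmapped), and 0 rows named no gene. Of the gene identifiers, 99.6% were found in GENCODE vM21, and merged exons gave lengths.

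Each genotype comparison used 6 against 6 libraries of 1 region with edgeR 4.0.16 in R 4.3.3 (filterByExpr, TMM, quasi-likelihood test, Benjamini-Hochberg adjusted p under 0.05 over all genes tested). Regions were compared with a term for each mouse. Ratios were tested with scipy 1.17.1 in Python 3.11.15. The alternatives were DESeq2 1.42.0, its size factors within edgeR, no filter, the replicate number as a block, each mouse left out, medians or 1 added count for the ratios, and removal of GC content and length by splines, added after seeing the data. The members, gene lists and tests were chosen with earlier results of these data known. Named are all members, listed pathway genes called in a genotype comparison or triplicated, and the 3 genes most like each triplicated member, of which some are not reported here. The scripts were tested on simulated data. Replicates are separate mice, and the intervals give the uncertainty of the mean difference that follows from the spread between mice. Single mice can lie outside them.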

Additional observations from a re-analysis of the deposited data

Results flagged for a closer look

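In 52 groups of 6 libraries (each of the 10 members and 3 ratios, by genotype and region), the gap between the extreme library and its nearest neighbour was compared with the 95% critical value of Dixon's test, which chance exceeds in about 1 in 20 groups, and 12 exceeded it. Of these 12, 10 were the library labelled Ts65Dn replicate 3 as the lowest of its group. For single genes these were Synj1 at 527 CPM in the HIP and 575 CPM in the EC, Synj2 at 143 CPM in the EC, and Itsn1 at 179 CPM in the HIP and 173 CPM in the EC. For ratios they were Itsn1 over Itsn2 at 2.03 (HIP) and 2.84 (EC), Synj1 over Sh3gl2 at 1.67 (HIP) and 1.36 (EC), and Synj1 over Synj2 at 4.01 in the EC. The other two were the highest of their groups: Itsn2 at 105 CPM in wt replicate 3 of the HIP, and Bin1 at 311 CPM in Ts65Dn replicate 4 of the HIP.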

How the results depend on the processing

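The genotype counts moved most. In the HIP, 181 genes were called by edgeR; DESeq2 called 575, removal of GC content and length left 70, and leaving out 1 mouse gave 54 to 318. In the EC, 426 were called; DESeq2 called 1078, no filter gave 275, removal of GC content and length left 134, and leaving out 1 mouse gave 90 to 685. Members called, 3 in each region, were 2 to 3 (HIP) and 2 to 4 (EC) with 1 mouse left out, and DESeq2 called 5 in the EC. Listed pathway genes called were 0 in the HIP (1 by DESeq2, 0 to 2 with 1 mouse left out) and 2 in the EC (5 by DESeq2, 0 with GC content and length removed, 0 to 3 with 1 mouse left out). The interaction called 0 genes, and 37 with no filter. With GC content and length removed, the share of calls that were higher went from 51.9% to 60.0% (HIP) and from 46.0% to 55.2% (EC). Leaving out Ts65Dn replicate 5 gave 37.2% in the HIP, and leaving out Ts65Dn replicate 6 gave 35.2% in the EC. Of 700 single-gene values under alternatives, 672 kept their side of the threshold, 25 lost the call and 3 gained it. The sign changed in 27 of the 700 and in 4 values of the Synj1 over Synj2 ratio in the EC, in each case with no call in either setting.

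Replicate numbers are shared between genotypes only as numbers: same-numbered mice had correlations of deviations between -0.224 and 0.162 (HIP) and between -0.104 and 0.166 (EC). With the replicate number as a block, 29 genes were called in the HIP and 36 in the EC, 1 member in the HIP (Synj2) and 1 in the EC (Itsn1), and 0 pathway genes in the EC.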
